A study of Mus musculus with 24 samples.

Results

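The transcripts of 6 genes of vascular growth signalling were followed in cultured mouse whisker follicles: Vegfa, Vegfb, Pgf, Flt1, Nrp1 and Nrp2. Every probe that carries 1 of these gene names in the scanner output was taken and kept apart from the others, which gave 20 probes of 56605 on the array. Of the 20 probes, 17 passed the filter on dim probes and were tested among 33339 probes. The probes belong to 6 of 36610 gene names on the array, and 15 of the 20 carry a RefSeq accession of the named gene.

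Vibrissa follicles of 9-day-old B6C3F1 mice were kept for 24 h in RPMI 1640 medium with 10% serum. The control group had no added compound. The other groups had panthenyl ethyl ether (PEE, 0.3%, a derivative of provitamin B5), pyridoxine hydrochloride (PH, 0.015%, a form of vitamin B6), tocopherol acetate (TA, 0.024%, an ester of vitamin E), the pairs PEE-PH, PEE-TA and PH-TA, or all of them (PEE-PH-TA), each at the same dose as alone. RNA of 10 follicles went on each one-colour Agilent array, with 3 arrays in each of 8 groups, and each of 3 slides carried 1 array of every group. The labels describe 3 independent experiments, without tying them to animals, so p-values measure the spread between these samples. The title of the series names placental growth factor and its receptor VEGFR-1, and these members were measured to see which transcripts of that signalling moved with each compound and mixture.

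Vascular endothelial growth factor A (VEGF-A, gene Vegfa), VEGF-B (Vegfb) and placental growth factor (PlGF, Pgf) are secreted ligands of VEGFR-1, the receptor tyrosine kinase encoded by Flt1. VEGF-A also binds VEGFR-2 (Kdr), the main signalling receptor of endothelial cells, while PlGF and VEGF-B do not. Shortened Flt1 transcripts that end within the gene are known to encode a soluble VEGFR-1 without a kinase, which captures ligand. Neuropilin 1 and 2 (Nrp1 and Nrp2) are co-receptors for VEGF ligands and for class 3 semaphorins. In the follicle, VEGF-A from the follicle epithelium is known to support the vessels around the growing hair bulb.

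Levels are log2 of the processed signal relative to the 75th percentile of the signal on the same array, so that 0 is the 75th percentile, and a level is compared only between arrays for the same probe. The scans were alike, with 58.3 to 62.5% of spots well above background and no saturated spot. The 75th percentile itself was 142 to 147 intensity units with PEE, 155 to 190 in control and 177 to 248 with the pairs. It moved with the groups, so a fit with it as a covariate was also made. That fit cannot tell the covariate from the treatments, so a call that ends in it does not show why. The tissue label was in accord with the markers: all 8 hair follicle epithelium markers were measured, with a summed signal of 957 to 1520 times the 75th percentile, and 4 of 5 dermal papilla markers were measured. Skeletal muscle markers were also present, with a summed signal from 7.2 (PH) to 48.0 (PEE-TA), and 4 of 5 of them rose when PEE was paired with either other compound, 2 with PH-TA and 0 in the other treatments. The shares of all tested probes that passed were 34.5% with PEE-PH, 24.2% with PEE-TA, 27.6% with PH-TA and 2.37 to 16% in the other treatments. In such tissue RNA, fewer cells of a type and less RNA per cell cannot be told apart.

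The probes differ in the transcript they can report, and their sequences are shown because the results turn on that difference. They were read from the scanner output, 5′ to 3′ in the sense of the transcript, and capitals mark AATAAA (the poly(A) signal), ATTTA (a motif of unstable transcripts) or a run of TG repeats. Of the probes shown, those in coding exons are given whole with 60 bases, and of the others the last 30 bases are given. In the gene Flt1, on the minus strand of chromosome 5 in mm9, A_51_P398723 lies late in transcript variant 1 (NM_010228, 148373791 to 148373850). The pair A_55_P2735980 (148450688 to 148450747) and A_55_P2800423 (148448888 to 148448947) reports variant 2 (NM_001363135), which is a shorter transcript that ends 75.1 kb earlier in the gene. The variant 2 probes are 1800 bases apart both in the genome and in the transcript, so no intron lies between them. The labels do not say whether variant 2 encodes the soluble receptor.
Flt1 A_51_P398723, variant 1: ttctgcttaaagacttagctttggagccta
Flt1 A_55_P2735980, variant 2: gtcaaacattaaaggactcatttgaaaagt
Flt1 A_55_P2800423, variant 2: catgcaaagtccattccttccctgtgagta

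Vegfa lies on the minus strand of chromosome 17, and 4 probes read it at different exons. A_52_P249424 lies in a coding exon of the receptor-binding core that all common forms of VEGF-A share. A_55_P2741794 (46159226 to 46159282) lies in the basic exon that binds heparin, which the long form keeps and the common shorter forms leave out. A_51_P482552 (46155512 to 46155571) and A_52_P638895 (46154387 to 46154446) lie past the coding part, 1125 bases apart in both the genome and the transcript. ATTTA was found on the sense strand in A_52_P638895 and in 8.08% of all probes.
Vegfa A_55_P2741794, long-form exon: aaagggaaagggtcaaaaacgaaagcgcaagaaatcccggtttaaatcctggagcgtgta
Vegfa A_51_P482552, last exon: ctaaatcgccaagcccggaagattagggtt
Vegfa A_52_P638895, last exon: agaagatATTTAattttgctaacactcagc

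Pgf and Vegfb each had 1 probe: A_51_P318381 (chromosome 12, minus strand, 86508335 to 86510337, a span of 2003 bases for a 60-base probe, so it crosses an intron) and A_52_P436628 (chromosome 19, minus strand, 7057245 to 7057304). Nrp1 lies on the plus strand of chromosome 8. Its probe A_52_P371237 (130992273 to 130992332) is in a coding exon, and A_55_P2830615 (131027137 to 131027196) and A_65_P18547 (131028306 to 131028365) lie 1169 bases apart at the far end of transcript variant 1. Nrp2 lies on the plus strand of chromosome 1, where A_52_P93910 (62865129 to 62865188) is at the end of variant 1 and A_55_P2800321 (62843061 to 62843120) reports variant 5, 22.1 kb earlier. AATAAA was found on the sense strand in the Nrp1 probe A_65_P18547, in the Nrp2 probe A_52_P93910 and in 9.77% of all probes.
Pgf A_51_P318381: gtgatgtcatttcccggaggtaaccagcca
Nrp1 A_52_P371237, coding exon: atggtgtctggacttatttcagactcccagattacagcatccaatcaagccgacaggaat
Nrp1 A_65_P18547, end of variant 1: cacttaaggAATAAAcaataatcctgatgc
Nrp2 A_52_P93910, end of variant 1: tactgtgattcttcaatgtaaaaAATAAAa
Nrp2 A_55_P2800321, variant 5: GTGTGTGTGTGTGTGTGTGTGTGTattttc

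In the limma fit of all tested probes, adjusted by Benjamini and Hochberg with a threshold of 0.05, the receptor Flt1 and the co-receptor Nrp1 rose with most treatments, and PEE was shared by the treatments with the largest rises of Nrp1. With PEE 3 of 17 member probes passed, all higher than control, against 8.9% of all probes. With PH 0 passed, against 5.68% of all probes, and 5 had an unadjusted p under 0.05. TA changed 1, the Pgf probe, against 2.37%. The pairs changed more. For PH-TA it was 7 probes (5 higher, 2 lower, against 27.6%), for PEE-TA also 7 (6 higher, 1 lower, against 24.2%), and for PEE-PH 8 (7 higher, 1 lower, against 34.5%). With PEE-PH-TA 4 passed (3 higher, 1 lower), against 16% of all probes. These shares lie close to or somewhat above those of all probes, so a count of calls alone does not set these genes apart. The median difference of the 17 probes was 0.34 with PEE-PH, where the median of all probes was -0.07, and 0.26 with PEE-PH-TA, where that of all probes was -0.02. With PH and with TA it was 0.02 each, where that of all probes was -0.03 each. The 17 probes are of 6 genes, share the arrays and were chosen with earlier results known, so these medians are a description. All 7 comparisons share the control arrays.

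**Figure D1:**
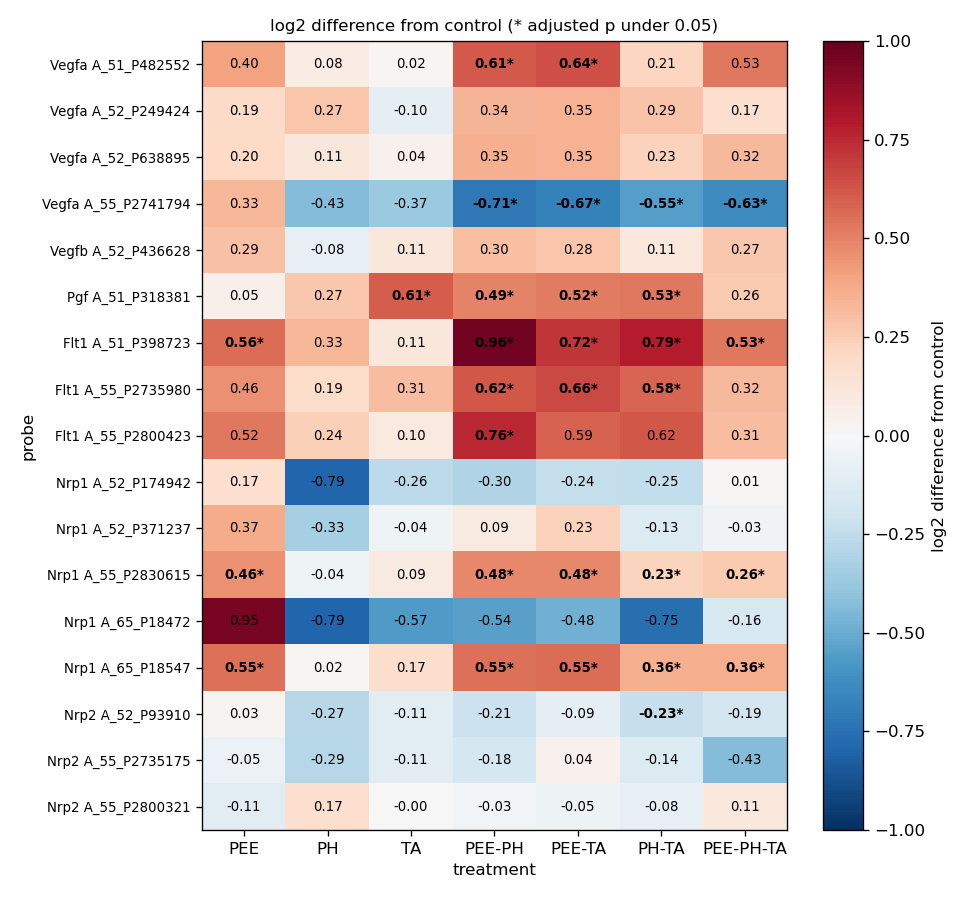
Log2 difference from control of the 17 tested probes (rows) with 7 treatments (columns), n = 3 arrays per group, red for higher and blue for lower, with a star where the limma adjusted p is under 0.05. The late Nrp1 probes A_55_P2830615 and A_65_P18547 and the Flt1 variant 1 probe carry stars with 5 treatments each, while the Vegfa long-form exon probe A_55_P2741794 is lower with 4.

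Among the ligands, Pgf was higher than control with TA and with each pair. On the control arrays its level was -0.06, -0.13 and -0.05, and with TA it was 0.46, 0.48 and 0.63, so the groups did not overlap. With PH the level was 0.25, 0.44 and -0.15, and with PEE it was -0.03, 0.09 and -0.15, both overlapping control. The levels were 0.65, 0.34 and 0.35 for PH-TA, 0.20, 0.68 and 0.44 for PEE-TA, and 0.56, 0.38 and 0.29 for PEE-PH, all above every control array. With PEE-PH-TA it was -0.01, 0.30 and 0.24, above every control array without passing. The mean of 0.18 ± 0.17 (SD, n = 3) was above only those of control and PEE. The groups in rising order were control, PEE, PEE-PH-TA, PH, PEE-PH, PEE-TA, PH-TA, then TA, and each neighbour in this order overlapped the next. The difference from control was 1.52-fold with TA and 1.41-fold to 1.44-fold with the pairs. TA raised Pgf by 0.61 on its own and by 0.47 on top of PEE, by 0.27 on top of PH, and the value on top of PEE-PH was -0.23. Within the slides the average effect of TA was 0.14, 0.26 and 0.43. With the array's 75th percentile signal as a covariate, limma adjusted p was 0.0697 for TA, 0.125 for PEE-PH and 0.294 for PH-TA, and the call with PEE-TA was kept. The call with TA alone ended without any 1 of its 6 arrays, with limma adjusted p between 0.0529 (control replicate 1) and 0.132 (control replicate 3), and the pairs each had 1 array that did so (PEE-PH replicate 1, 0.0614, PEE-TA replicate 2, 0.0829, and PH-TA replicate 1, 0.0634).

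The Vegfa probes did not move alike. The last-exon probe A_51_P482552 rose 1.53-fold under PEE-PH and 1.56-fold under PEE-TA, and the long-form exon probe A_55_P2741794 fell with all 3 pairs and with PEE-PH-TA. The shared coding probe A_52_P249424 and the second last-exon probe A_52_P638895 passed in 0 of 7 comparisons, with differences of up to 0.35 each, and both overlapped control under PH-TA.

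On the last-exon probe A_51_P482552 the control arrays had levels of 1.32, 1.23 and 1.47. Treated levels were 1.96, 2.04 and 1.86 under PEE-PH, 1.84, 2.13 and 1.98 under PEE-TA and 1.63, 1.83 and 2.15 in PEE-PH-TA, all above every control array. PEE alone gave 1.66, 1.95 and 1.62, while PH (1.63, 1.58 and 1.04), TA (1.496, 1.40 and 1.18) and PH-TA (1.71, 1.12 and 1.83) overlapped control. All 4 groups with PEE thus lay above control without overlap, and the 3 groups without it did not. The other last-exon probe, A_52_P638895, showed the same pattern of overlap without passing. Its lowest level with PEE alone was 2.634, against a highest control level of 2.633. Averaging over the 4 backgrounds sets the 12 arrays with PEE against the 12 without. On average PEE raised A_51_P482552 by 0.47 ± 0.09 (SE, limma adjusted p = 0.000686), and by 0.23, 0.65 and 0.52 within the slides. The rise with PEE-PH-TA, 0.53 ± 0.18, missed the threshold (limma adjusted p = 0.0526). Without control replicate 2 the calls with PEE-PH (0.051) and PEE-TA (0.0566) ended, without PEE-TA replicate 2 the latter did (0.0714), and the covariate ended the former (0.0569).

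The long-form exon probe was dim, with 13.3 to 29.5 intensity units, but well above background on 24 arrays. Its control levels were -2.97, -3.00 and -2.64. Treated levels were -3.64, -3.83 and -3.28 under PEE-PH, -3.35, -3.55 and -3.73 under PEE-TA, -3.44, -3.62 and -3.19 under PH-TA, and -3.80, -3.35 and -3.35 in PEE-PH-TA. These 4 groups lay below every control array, as did PH (-3.06, -3.32 and -3.53) and TA (-3.02, -3.32 and -3.39), while PEE alone (-2.32, -2.76 and -2.53) overlapped control. The log2 differences of these 4 groups, in the same order, were -0.71, -0.67, -0.55 and -0.63, with an SE of 0.18 each. The 3960 tested probes within 0.5 log2 of its brightness had medians of -0.12, -0.13, -0.11 and -0.08 in these comparisons. The probe was thus lower by more than the typical probe of like brightness. With the array's 75th percentile signal as a covariate, limma adjusted p was 0.775 for PH-TA, 0.221 for PEE-PH and 0.0653 for PEE-TA. Their differences in that fit were -0.19, -0.45 and -0.53. Of the 4 calls that with PEE-PH-TA was kept (0.049). With normexp background correction the differences were smaller, at -0.33 for PEE-PH, -0.25 for PEE-TA, -0.34 for PH-TA and -0.20 for PEE-PH-TA, and the last did not pass (limma adjusted p = 0.0767). On the authors' deposited values they were -0.42, -0.37, -0.36 and -0.41, and that with PEE-PH passed (0.0378). Without control replicate 3 the calls with PH-TA (0.134), PEE-TA (0.0633) and PEE-PH-TA (0.111) ended. So they did without PH-TA replicate 2 (0.117) or 1 (0.0833), PEE-TA replicate 3 (0.0534) and PEE-PH-TA replicate 1 (0.116).

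Whether probes of 1 gene responded unequally was tested within arrays, where the scaling of the array cancels, by an exact two-sided permutation test over 160000 arrangements. For 15 probe pairs and 3 compounds, 45 tests were made, of which 11 passed after adjustment and 8 of these were in Vegfa. The average effect of PEE was 0.32 larger on A_51_P482552 than on the shared coding probe and 0.26 larger than on the other last-exon probe. Both gave an exact p of 1.25e-05, the smallest that these arrangements can give, and an adjusted p of 0.000281, with the same sign in 4 of 4 backgrounds. Against the long-form exon probe, the effect of PH was 0.50 larger on A_51_P482552, 0.56 larger on the shared coding probe and 0.51 larger on A_52_P638895 (exact permutation, adjusted p = 0.016, 0.0103 and 0.0103), each in 3 of 4 backgrounds. With the slide as a block, these 3 had exact permutation adjusted p of 0.0854, 0.0753 and 0.0586, and they also did not pass without replicate 1 or without replicate 3 of every group. The part of the low signal of the long-form exon probe in these differences was not tested.

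Vegfb passed in no single comparison with control. Its control levels were 0.68, 0.24 and 0.43, and only PEE (0.73, 0.73 and 0.76) lay above them without overlap. PEE raised it by 0.25 ± 0.06 (SE) on average over the 4 backgrounds (limma adjusted p = 0.00716), with 0.16 to 0.38 in each background and 0.19, 0.35 and 0.21 within the slides. With PH and with TA the average effects were -0.02 and 0.06 and did not pass.

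**Figure D2:**
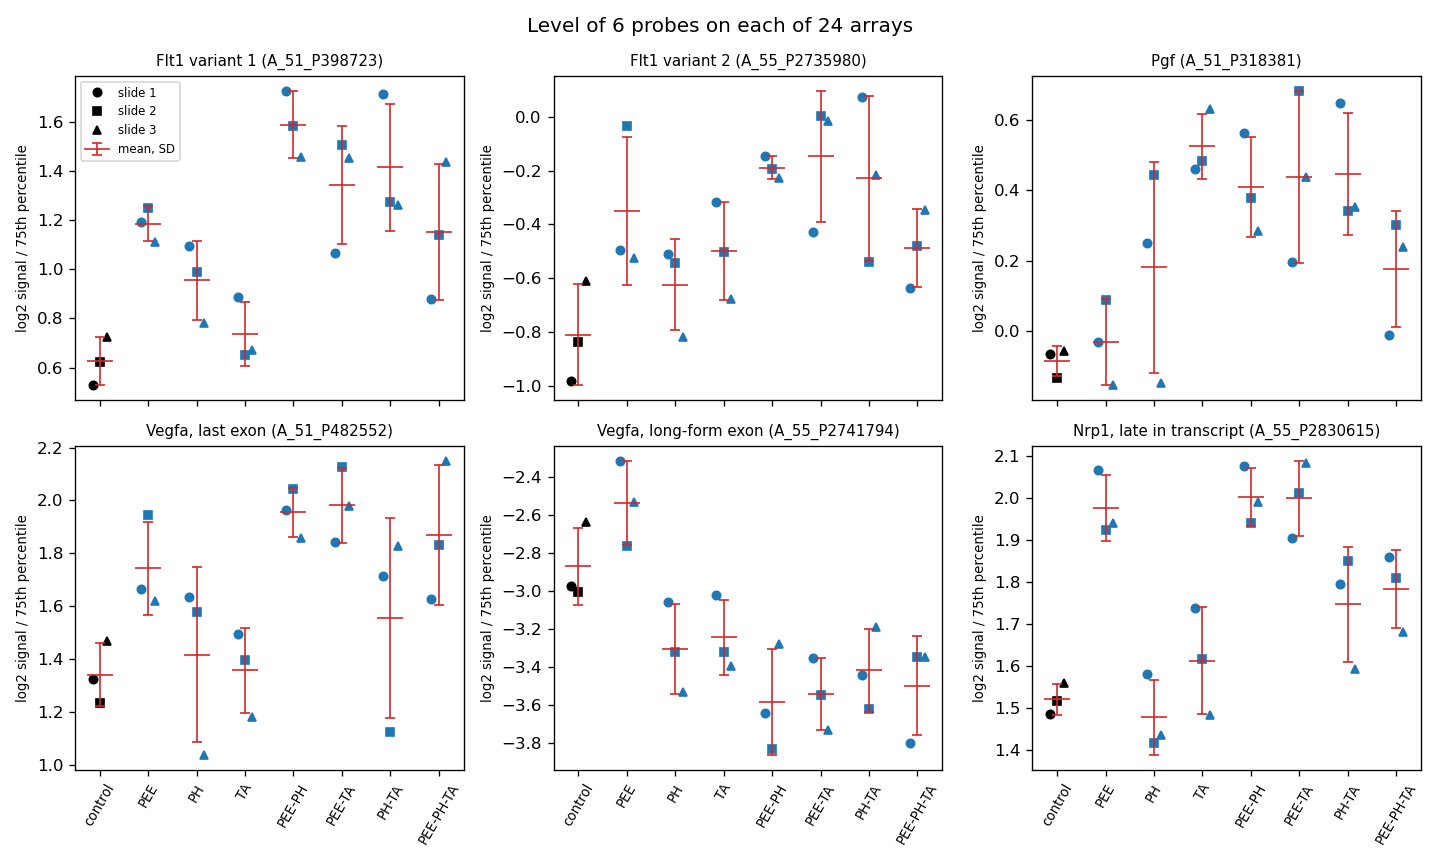
Level of 6 probes (log2 signal relative to the 75th percentile of the array) on each of 24 arrays, by group, with 1 symbol per slide and the mean and SD of 3 arrays in red. Flt1 variant 1 is highest with PEE-PH (mean 1.59), Pgf with TA (0.52), and the Vegfa long-form exon is above or near control only with PEE.

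The receptor Flt1 rose with 5 of 7 treatments on its variant 1 probe and with fewer on the variant 2 probes. The variant 1 probe had control levels of 0.53, 0.62 and 0.73. It was 1.19, 1.25 and 1.11 under PEE, 1.73, 1.58 and 1.46 under PEE-PH, 1.07, 1.51 and 1.45 under PEE-TA, 1.71, 1.27 and 1.26 under PH-TA, and 0.88, 1.14 and 1.44 in PEE-PH-TA. These groups lay above every control array. PH alone (1.10, 0.99 and 0.78) also lay above every control array without passing, and TA alone (0.89, 0.65 and 0.67) overlapped control. In order of the mean, the groups were control (0.63 ± 0.10, SD, n = 3), TA (0.74), PH (0.96), PEE-PH-TA (1.15), PEE (1.19), PEE-TA (1.34), PH-TA (1.42) and PEE-PH (1.59), and each overlapped its neighbour. The largest difference from control was 1.95-fold, with PEE-PH (limma adjusted p = 9.65e-05), and PEE-PH-TA stood at 1.44-fold (0.0203).

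Of these calls, that with PEE-PH was kept under every alternative run, with limma adjusted p of at most 0.0178. The call with PEE ended without control replicate 1 (0.0871) or 2 (0.0694) or without PEE replicate 1 (0.0618) or 2 (0.0807). That with PEE-PH-TA ended without PEE-PH-TA replicate 3 (0.102) or 2 (0.05) or without control replicate 1 (0.0698) or 2 (0.0551). With the 75th percentile signal as a covariate, the rises with PEE (0.56, limma adjusted p = 0.143) and PH-TA (0.79, 0.128) did not pass. Without the covariate the rise with PEE was also 0.56.

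On the variant 2 probe A_55_P2735980 the control levels were -0.98, -0.84 and -0.61. The levels under PH-TA were 0.07, -0.54 and -0.21, those under PEE-TA -0.43, 0.00 and -0.01, and those under PEE-PH -0.15, -0.19 and -0.23. All 3 groups lay above control and passed, with log2 differences of 0.58, 0.66 and 0.62. PEE alone (-0.50, -0.03 and -0.52) also lay above every control array without passing. The call with PH-TA ended without PH-TA replicate 1 (limma adjusted p = 0.0928) or control replicate 1 (0.0581), with the covariate (0.162) and in a fit of only the arrays compared (0.065). With PEE-PH-TA the levels were -0.64, -0.48 and -0.35, overlapping control, and the difference of 0.32 ± 0.16 (SE) did not pass (limma adjusted p = 0.205). On the second variant 2 probe, A_55_P2800423, only PEE-PH passed (0.76 ± 0.23, limma adjusted p = 0.0172), with levels of 1.01, 0.87 and 0.70 against -0.25, 0.21 and 0.35 in control, and it ended without control replicate 1 (0.0868) or PEE-PH replicate 1 (0.0673) or with the covariate (0.0788). This probe spread more within groups, by an SD of 0.16 to 0.39 against 0.04 to 0.31 on the first. The other Flt1 probe, A_52_P405145, was well above background on 0 of 24 arrays.

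The variant 1 probe and 1 of the 2 variant 2 probes differed in their response to PH. Averaged over the backgrounds, PH raised variant 1 by 0.31 ± 0.07 (SE, limma adjusted p = 0.00505, and 0.254 with the 75th percentile signal as a covariate), and the average on A_55_P2735980 was 0.07 ± 0.08 (0.556). The rise was not uniform. On variant 1, PH added 0.33 to medium alone, 0.40 on top of PEE and 0.68 on top of TA, and the value on top of PEE-TA was -0.19. On A_55_P2735980 the same values were 0.19, 0.16, 0.27 and -0.34. The difference of 0.24 between the probes had an exact permutation p of 2.5e-05 (adjusted p = 0.000375), with the same sign in 4 of 4 backgrounds, and it was kept in all 31 alternatives run, at 0.19 to 0.26. Against the other variant 2 probe the difference was 0.13 and did not pass (exact permutation, adjusted p = 0.138). The variant 2 probes differed from each other by 0.11 for PH (adjusted p = 0.138), so the data do not settle whether the contrast holds for all of variant 2. The differences for PEE and TA were 0.14 and -0.08 between the first pair of probes and did not pass.

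Several genes of blood endothelium, the cell type that carries most VEGFR-1 in many tissues, passed in the same comparisons as the Flt1 variant 1 probe. All 10 markers were well above background on 24 arrays. Of these, 7 rose with PH-TA, 8 with each of PEE-PH and PEE-TA, 6 in the PEE group and 3 in PEE-PH-TA. With PH and with TA 0 passed, and 0 fell in any treatment. The shares of all probes that passed were 27.6% with PH-TA, 34.5% with PEE-PH, 24.2% with PEE-TA, 8.9% with PEE, 5.68% with PH and 16% with PEE-PH-TA. The angiopoietin receptor Tek (1.10 with PEE-PH, 0.57 with PEE-PH-TA), the junction protein Cdh5 (0.90 and 0.56) and the surface protein Emcn (0.81 and 0.53) rose with both. These are the 3 markers that passed in PEE-PH-TA. For PEE-PH the median difference of the 10 markers stood at 0.56, beside 0.96 for Flt1 variant 1, and PEE-PH-TA had 0.25 beside 0.53. PH alone had a marker median of 0.003 beside 0.33, TA alone 0.42 beside 0.11, and PEE alone 0.64 beside 0.56. The summed signal of the 10 markers was 18.13 to 19.97 times the 75th percentile in control, 17.4 to 22.6 in PH, 22.3 to 26.5 in TA, 25.98 to 29.4 in PEE and 19.7 to 25.8 in PEE-PH-TA. In the pairs it was 23.3 to 33.7 for PH-TA, 24.2 to 31.7 for PEE-TA and 26.1 to 32.1 for PEE-PH. Of 5 mural cell markers, 1 rose under each pair, while 2 fell under PEE-PH, 1 under PEE-TA and 0 under PH-TA. The PEE group and PEE-PH-TA each had 2 lower and 0 higher, and neither PH nor TA alone changed any. Of 7 macrophage markers, 1 to 3 fell in every treatment but TA, and 1 rose under PEE. The part of these cells in the rise of Flt1 was not tested.

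**Figure D3:**
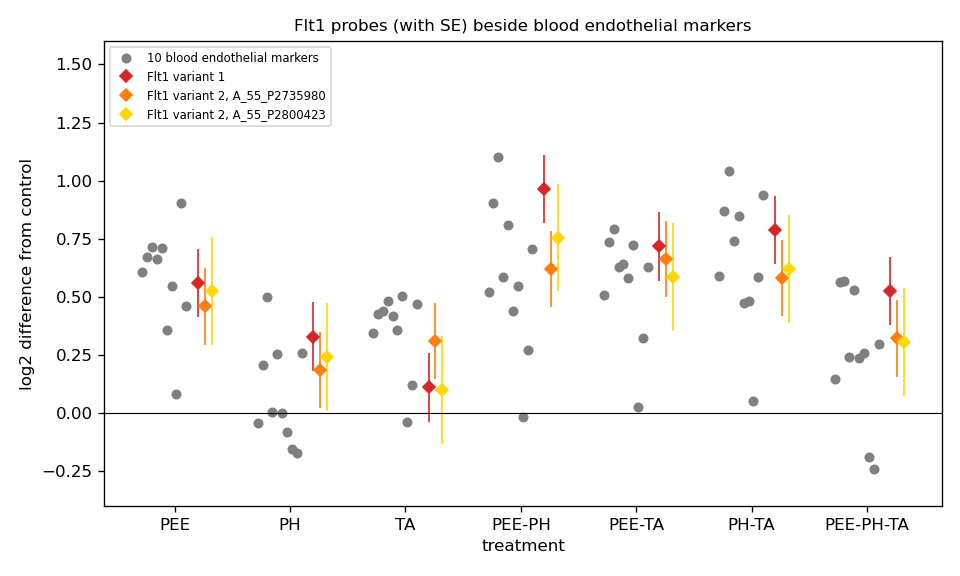
Log2 difference from control of the 3 measured Flt1 probes (diamonds with SE) and of 10 blood endothelial markers (grey points) with 7 treatments, n = 3 arrays per group. With PEE-PH, Flt1 variant 1 stood at 0.96 and Tek at 1.10, and with PEE-PH-TA they stood at 0.53 and 0.57. The median of the 10 markers was 0.56 in the former and 0.25 in the latter.

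The co-receptor Nrp1 rose with every treatment that held PEE and with PH-TA on both probes at the end of variant 1. On A_55_P2830615 the control levels were 1.49, 1.52 and 1.56. Levels were 2.07, 1.92 and 1.94 under PEE, 2.08, 1.94 and 1.99 under PEE-PH and 1.91, 2.01 and 2.08 under PEE-TA, while PEE-PH-TA gave 1.86, 1.81 and 1.68 and PH-TA 1.80, 1.85 and 1.59. The 3 groups with PEE and at most 1 other compound lay above all other groups without overlap, and PH (1.58, 1.42 and 1.44) and TA (1.74, 1.62 and 1.48) overlapped control. PEE-PH-TA and PH-TA lay above every control array and below those 3 groups, and both overlapped TA. In the order just given the rises were 1.37-fold, 1.40-fold, 1.39-fold, 1.20-fold and 1.17-fold. On A_65_P18547 they were 1.46-fold, 1.46-fold, 1.47-fold, 1.28-fold and 1.28-fold, all past the threshold.

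Averaged over backgrounds, PEE raised these probes by 0.35 ± 0.04 and 0.37 ± 0.05 (SE, limma adjusted p = 4.5e-06 and 6.2e-05), and these calls were kept under every alternative run, with adjusted p of at most 0.00384 and 0.00884. On A_55_P2830615 PEE added 0.46 to medium alone, 0.53 on top of PH, 0.39 on top of TA and 0.04 on top of PH-TA. On A_65_P18547 the same values were 0.55, 0.53, 0.38 and 0.00. The calls with PEE-PH-TA and PH-TA ended without single arrays on both probes, with limma adjusted p of up to 0.132 and 0.184 on the first and 0.127 and 0.0952 on the second, the highest of these without PEE-PH-TA replicate 1 and PH-TA replicate 2 on the first and without control replicate 1 on the second. The covariate ended both on the first (0.0562 and 0.439) and, on the second, PH-TA (0.0828) and PEE (0.132).

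The coding probe of Nrp1, A_52_P371237, was dim (12.3 to 26.1 intensity units) and passed in 0 of 7 comparisons with control. Its control levels were -3.39, -3.41 and -3.55, PEE gave -3.05, -2.93 and -3.25, and PH gave -3.71, -3.78 and -3.86. PEE thus lay above control and PH below it, each without overlap. Its average effect was 0.29 ± 0.08 for PEE (SE, limma adjusted p = 0.015) and -0.24 ± 0.08 for PH (0.0368). Under quantile normalization the PH value had an adjusted p of 0.229, with the covariate it was 0.241 and on the values of the authors' deposited table it was 0.208, and 14 single arrays ended that call, while leaving out each of the other 10 kept it. The probe differed from A_55_P2830615 in the effect of PH by -0.22 (exact permutation, adjusted p = 0.0417), which was lost in 21 of 31 alternatives. The 4 other Nrp1 probes carry other transcript accessions and were dimmer: A_52_P174942 was well above it on 23 arrays, A_65_P18472 on 15, and A_55_P2734297 and A_55_P2738087 on 0. The average effect of PH on A_65_P18472 was -0.53 ± 0.18 (SE, limma adjusted p = 0.0323). This probe was tested because it was well above background on all arrays of PEE and PEE-PH-TA, while in the other groups 1 or 2 of 3 arrays were, so its value rests in part on signals at background and supports nothing. With the covariate its adjusted p was 0.775.

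**Figure D4:**
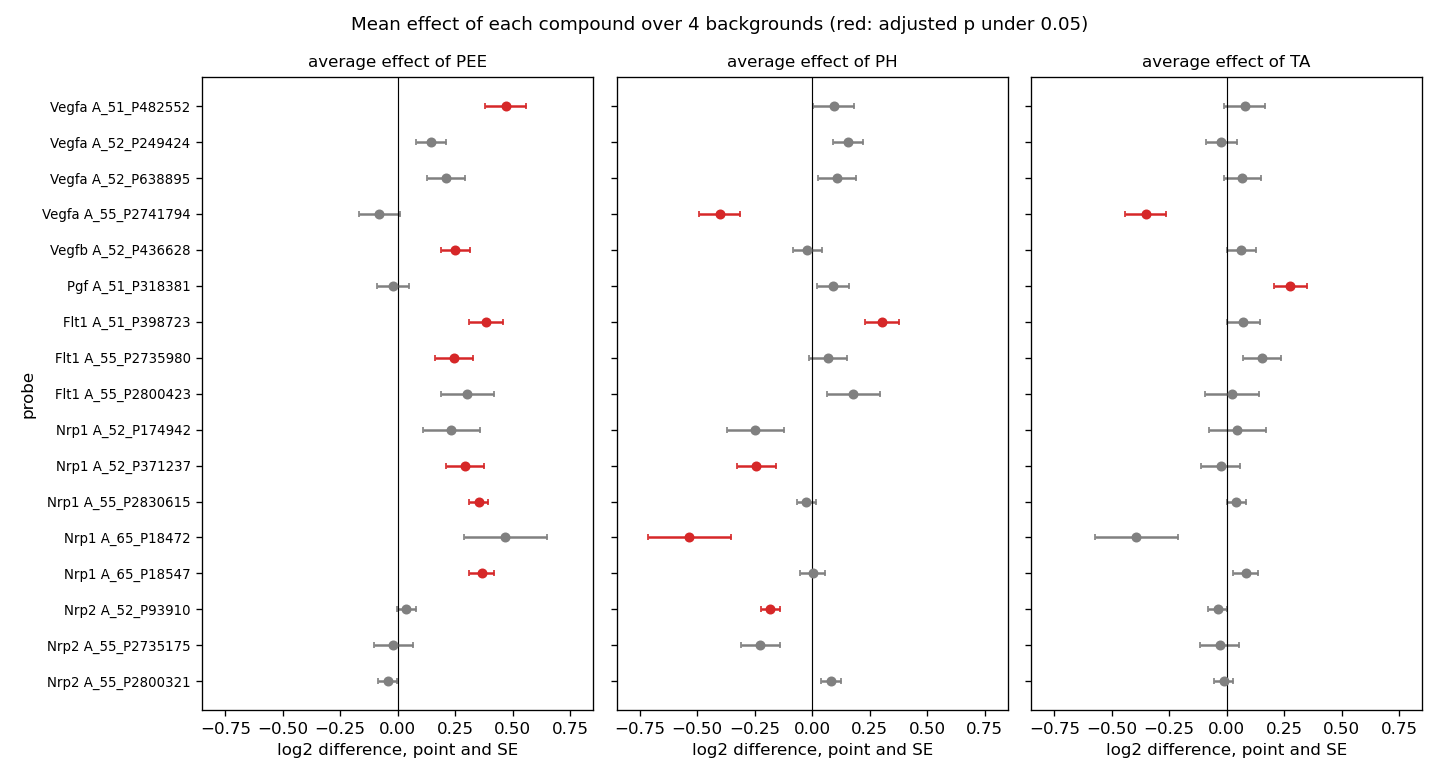
Mean effect of PEE, PH and TA over the 4 backgrounds (12 arrays with the compound against 12 without) on the 17 tested probes, as log2 difference with SE, in red where the limma adjusted p is under 0.05. PEE has 7 red points, all above 0, PH has 1 above and 4 below, and TA has Pgf above (0.28) and the Vegfa long-form exon below (-0.35).

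Over the backgrounds, PEE changed 7 of 17 probes, all higher, against 25.2% of all probes. PH changed 5, of which 4 were lower (1 of them the Nrp1 probe A_65_P18472 near background), against 29.4%, and TA changed 2, against 8.68%. The count for PH is thus at the share of all probes, where falls also outnumbered rises (5989 against 3814). The direction differed by compound and by probe: the probes that rose with PEE were Vegfa A_51_P482552, Vegfb, Flt1 A_51_P398723 and A_55_P2735980 and 3 of Nrp1, and Flt1 variant 1 alone rose with PH. The call of Flt1 A_55_P2735980 for PEE ended without any 1 of 10 arrays and with the covariate (0.133). On both of these Flt1 probes the value of PEE on top of PH-TA was -0.26, against 0.35 to 0.63 in the other backgrounds. With the 75th percentile signal as a covariate the count was 0 for PH and 0 for TA.

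The second neuropilin, Nrp2, moved little. Its variant 1 probe A_52_P93910 had control levels of 3.83, 3.73 and 3.95, and PH (3.67, 3.44 and 3.59), PEE-PH (3.62, 3.57 and 3.69), PH-TA (3.64, 3.64 and 3.55) and PEE-PH-TA (3.67, 3.59 and 3.70) lay below all of them. These are the 4 groups with PH. The average effect of PH was -0.18 ± 0.04 (SE, limma adjusted p = 0.00299), or -0.23, -0.17 and -0.14 within the slides, and PH-TA passed alone among the treatments (0.854-fold, 0.044), a call that 8 single arrays ended, most with control replicate 3 left out (0.188). With the 75th percentile signal as a covariate the average effect of PH did not pass (0.187).

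The variant 5 probe A_55_P2800321 passed in 0 of 7 comparisons and had a mean of 5.48 with PEE to 5.75 with PH. It differed from the variant 1 probe in the effect of PH by 0.26 (variant 1 minus variant 5 -0.26, exact permutation p = 0.000475, adjusted p = 0.00428). This probe holds a run of 14 TG repeats, of which the capitals above show the end. Another 47 tested probes hold a run of at least 10 TG repeats, and their level over the 24 arrays had a median Pearson r of 0.91 with this probe, against -0.00029 for the 33291 tested probes without such a run. Of the 20 probes most like it, 17 held such a run. The correlation is across arrays that share slide and labelling and is a description. Whether this probe reads Nrp2 variant 5 or other transcripts with TG repeats cannot be told apart from these values. The variant 6 probe A_55_P2735175 passed in 0 comparisons, and its lowest mean was with PEE-PH-TA, at -2.80 ± 0.21 against -2.37 ± 0.26 in control (SD, n = 3).

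**Figure D5:**
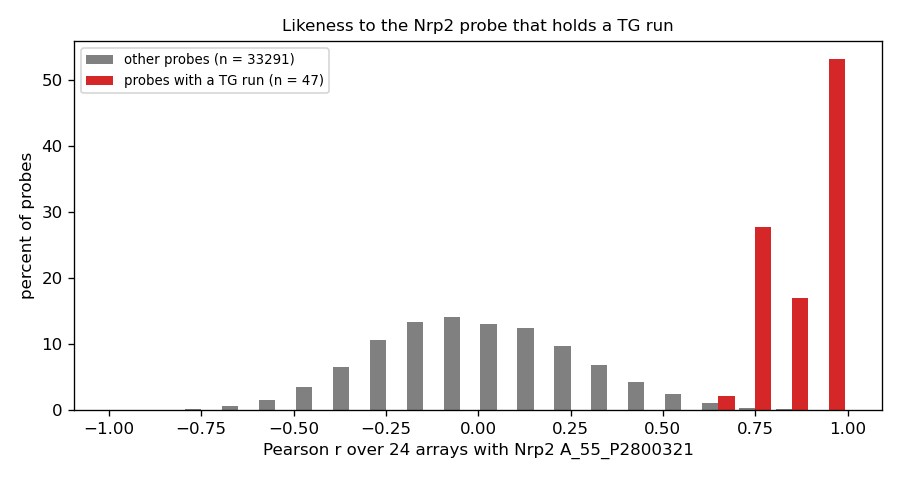
Share of tested probes (percent, vertical axis) by Pearson r over 24 arrays with the Nrp2 variant 5 probe A_55_P2800321, for 47 probes with a run of at least 10 TG repeats (red) and 33291 others (grey). The probes with a run lie at high r, with a median of 0.91, and the others lie around 0.

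The mixtures were also set against their parts, since the title of the series speaks of synergy. PEE-PH-TA differed from no pair at the threshold in limma: 0 of 17 member probes passed against PEE-PH (0.318% of all probes passed), 0 against PEE-TA (0.129%) and 0 against PH-TA (11.4%), with 2, 2 and 1 at an unadjusted p under 0.05. On the log2 scale, the sum of the single effects was exceeded or undercut by 0 of 17 probes with PEE-PH (0.009% of all), PEE-TA (0.057%), PH-TA (0.015%) and PEE-PH-TA (0.003%), with 1 each at an unadjusted p under 0.05. For PEE-PH-TA the value ranged from -0.67 ± 0.28 (SE, Pgf) to 0.90 ± 0.50 (the dim Nrp1 probe A_52_P174942), and all 3 measured Flt1 probes were below the sum, at -0.47, -0.63 and -0.56. With PH-TA the value was positive for 15 of 17 probes, with a median of 0.16, against 0.0001 for all probes. The 17 probes are of 6 genes and share the same arrays, so they are not separate observations. The SE of these differences from the sum was 0.11 to 0.72.

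Of the 4 other genes of the VEGF family (Vegfc, Vegfd, Kdr and Flt4), the lymphatic ligands Vegfc and Vegfd both fell with PEE and with every mixture, and Vegfd fell with PH. Set beside this, 34.5% of all probes passed for PEE-PH and 16% for the compounds all together. The other pairs had 27.6% (PH with TA) and 24.2% (PEE with TA), while single PEE had 8.9% and single PH 5.68%. Falls outnumbered rises among the passing probes in each of these comparisons, for instance 7172 against 4328 for PEE-PH. VEGFR-2, Kdr, rose with PEE-TA (0.40), and its average effect of PH was -0.21. Flt4, the lymphatic receptor, had 0.71 with PH-TA and passed in 0 comparisons. The medians of these 4 were -0.13 with PEE and -0.33 with PEE-PH-TA, where those of all probes were 0.02 and -0.02.

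Among 7 class 3 semaphorins, the other ligands of neuropilins, 3 rose and 1 fell with PH-TA, 2 rose and 2 fell with PEE-PH, while under PEE-TA 2 fell and in PEE-PH-TA 1. The shares of all probes that passed in these comparisons were 27.6%, 34.5%, 24.2% and 16%, so the counts under PEE-TA and in PEE-PH-TA are near the background. Sema3b rose by 0.94 with PH-TA and 0.70 with PEE-PH, and Sema3f by 0.36 and 0.29, while Sema3c fell by 0.58 and 0.44 (log2 differences of -0.58 and -0.44). Of 5 plexins, which signal with neuropilins for semaphorins, 4 rose with PH-TA, 2 with each pair that held PEE, and 0 with PH, TA or PEE-PH-TA, and with PEE 1 rose and 1 fell. Plxnd1, the endothelial plexin, rose by 0.41 with PEE and 0.46 with PH-TA, and Plxna1 by 0.44 with PEE-PH.

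Of 8 oxygen regulators, which set Vegfa and Flt1 transcription in low oxygen, Epas1 (HIF-2 alpha, a transcription factor abundant in endothelium) rose in 5 treatments, by 0.54 with PH-TA, 0.65 with PEE-TA, 0.63 with PEE-PH, 0.38 with PEE-PH-TA and 0.37 with PEE, and Egln1 with PEE-PH (0.46) and PEE-TA (0.45). Hif1a passed in 0 comparisons, with -0.11 to 0.15. Of the 8, 2 rose with each of PEE-PH and PEE-TA, 1 rose with each of PH-TA, PEE and PEE-PH-TA, and 0 fell. The shares of all probes were 34.5%, 24.2%, 27.6%, 8.9% and 16% in that order, so these counts are near or below the background. Of 12 genes of VEGF receptor signalling, 4 rose and 2 fell with PH-TA, 3 rose and 1 fell with PEE-PH, 2 rose and 1 fell with PEE-TA, and 1 rose with PEE. These counts are near the share of all probes in PEE-PH (34.5%), PEE-TA (24.2%) and PEE (8.9%), and PH-TA had 27.6%. The adaptor Shb rose with the pairs (0.30 to 0.44), and the kinase Ptk2 fell with them (-0.29 to -0.41). Nos3, the endothelial nitric oxide synthase, rose with PEE (0.43) and PH-TA (0.36). With PEE-PH-TA 0 of 12 passed.

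By Pearson r over the 24 arrays, the gene names most like each member's brightest tested probe were Mapk1ip1 (0.95), Inhbb (0.94) and Epas1 (0.94) for Flt1, and Smoc1 (0.89), Ankzf1 (0.88) and Cpt2 (0.87) for Pgf. For Vegfa they were Fgf11 (0.90), Nadk2 (0.88) and Kbtbd11 (0.88), for Vegfb Uap1l1 (0.93), Mgat4b (0.90) and Chpf2 (0.88), and for Nrp1 Aox1 (0.91), Chpf2 (0.90) and Hvcn1 (0.90). For Nrp2 they were Mtfr2 (0.96), Frmpd2 (0.95) and Synpo2l (0.95), whose probes hold 13, 14 and 9 TG repeats in a run. These values describe 24 arrays that share slides and groups.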

How the data were processed

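The intensities that the authors deposited for 24 one-colour arrays came from Agilent Feature Extraction 12.0.3.1 and carry probe positions on mm9, per the file headers. Spots marked as non-uniform (41) or as population outliers (2347) were set to missing. The 75th percentile of each array was subtracted from its processed signal on the log2 scale. The authors also deposited a table of log2 values, whose array medians were 3.73 to 3.78. Its scaling is not given in the sources used here. Each of its 24 columns correlated best with its own scan, and it served as an alternative.

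Tests took probes that at least 1 group had well above background on all its arrays, 33364 in number, of which 33339 had no missing value. Limma was fitted to 8 group means, with 16 residual and 2.3 prior degrees of freedom, and adjusted over all tested probes. A value after ± is an SE or SD as named, and n is 3 arrays per group, or 12 on each side of an average effect. The number of arrays limits precision. Probe pairs were tested by exact permutation within the backgrounds. Both tests were checked on simulated data. A gene outside the 6 members is shown by its brightest tested probe, and for each member the 3 most alike gene names are given.

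The members and lists were chosen with earlier results of these data known. Replicate numbers match the slides. Same-numbered arrays deviated from their group means with a correlation of -0.18 to 0.33 over 84 pairs, of which 37 were over 0.1. The median was 0.09, against -0.04 over 168 pairs of arrays with other numbers. The main tests did not pair the arrays by number, and the replicate block was run as an alternative. Sequences are those of the probes in the files, and that of 1 Vegfa probe is not reported here. Symbols were matched through RefSeq (GRCm38.p6), with no coordinates taken from it. Tools were R 4.3.3, limma 3.58.1, data.table (1.17.8), Python 3.11.15 and matplotlib 3.10.9. Hair length and protein were not analysed here.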

Additional observations from a re-analysis of the deposited data

Results flagged for a closer look

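In 3 cases every array of one background moved one way with TA and every array of another background the opposite way. Adding TA to PH raised Flt1 variant 1 (A_51_P398723) by 0.46, and adding it to PEE-PH gave -0.44. On the Nrp1 probe A_55_P2830615 the same additions gave 0.27 and -0.22. On the dim Nrp1 probe A_65_P18472, TA gave 0.38 on top of PEE-PH and -1.43 on top of PEE. That probe was well above background on 15 of 24 arrays, in PEE-TA on 1 of 3, and was tested through PEE and PEE-PH-TA, so these values rest in part on signals at background. The differences between backgrounds were not tested.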

How the results depend on the processing

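Of 44 calls of member probes, 0 reversed under any alternative, 6 were kept under all of them and 21 ended without some single array. The counts of passing probes given in the report moved as follows. Quantile normalization gave 4 with PH-TA. Normexp background gave 7 with PEE, 14 with PEE-PH, 12 with PH-TA, 9 for the average effect of PH, 6 for that of TA, while moving the median of all probes to -0.12 with PEE-PH and -0.16 with PH-TA. No filter on dim probes gave 0 with TA and 2 with PEE-PH-TA, with medians of -0.20 with PEE-PH and -0.21 with PH-TA. The replicate block gave 1 with PH and changed no other count by over 1.5 times, and the trended and robust prior gave 1 with PH. Only the arrays compared gave 2 with PH-TA and 0 with PEE-PH-TA. The 75th percentile signal as a covariate, chosen with earlier results known, gave 4 with PEE-PH, 1 with PEE, 0 with TA, 0 with PH-TA, and left 0 passing for PH or TA as average effects. Leaving out arrays or replicate numbers gave 0 to 3 with PEE, 0 to 2 with PH, 0 to 1 with TA, 3 to 9 with PEE-PH, 1 to 8 with PEE-TA, 1 to 8 with PH-TA and 0 to 5 with PEE-PH-TA. On average effects the same gave 4 to 11 (PEE), 1 to 7 (PH) and 0 to 2 (TA). Of 11 probe pair calls, 5 were kept in the replicate block: for PEE, Vegfa A_51_P482552 against each of the 3 other Vegfa probes, and for PH, Flt1 A_51_P398723 against A_55_P2735980 and the Nrp2 pair. The cause was not tested, except that leaving out a replicate number leaves 16 arrays. Signal over background limits the 4 dimmest tested probes of Vegfa and Nrp1.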
